A study of Mus musculus with 13 samples.

Results

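The small H3K27me3 sites described here are 1089 stretches of the mouse autosomes, each 1 kb to below 3 kb wide, that carried the mark in every H3K27me3 library of the series. They were selected on the measured peaks themselves. Touching or overlapping peaks of the 4 H3K27me3 lists were merged, and a merged region became a member if peaks of each list reached into it by 1 bp or more. On chromosomes 1 to 19 this merging gave 31429 regions, of which 4768 were held by all 4 lists. The small sites made up 22.8% of those 4768 regions but 8.71% of their bases, 2.45 Mb of 28.1 Mb. Of the other regions held by all 4 lists, 3168 were 3 kb to below 10 kb wide, 494 were 10 kb or wider and are called wide regions here, and 17 were under 1 kb.

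H3K27me3 is trimethylation of lysine 27 of histone H3. It is written by Polycomb repressive complex 2, whose catalytic subunits are Ezh2 and Ezh1, and it is bound by Cbx proteins of Polycomb repressive complex 1. In mouse embryonic stem (ES) cells the mark is known to sit on CpG-rich promoters of silent developmental genes, from single promoters up to whole gene clusters such as those of the Hox genes. H3K9me3 is a separate repressive mark that the methyltransferase Setdb1 writes, in ES cells mainly over retroelements.

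All cells were ES cells of the J1 strain in which knockout of Setdb1 can be induced, and the untreated controls carry the same inducible allele. They were grown without feeder cells in medium with serum and leukaemia inhibitory factor. Tamoxifen at 2.5 µM induced the ablation, and the labels name its solvent, DMSO, as the control. The duration of treatment is not given in the labels, and the loss of Setdb1 could not be checked from peak positions. Peak lists came from 2 H3K27me3 libraries of untreated cells, 2 H3K27me3 libraries of tamoxifen-treated cells and 4 H3K9me3 libraries of untreated cells. Replicate 1 of each group was processed with MACS2 2.0.10 and the other libraries with MACS2 2.1.0. Each version therefore holds 1 untreated and 1 tamoxifen H3K27me3 list. The H3K27me3 lists held 7041 and 17094 peaks without tamoxifen and 15116 and 22265 with it, in replicates 1 and 2. Their median peak widths were 2511 and 784 bp without tamoxifen and 729 and 727 bp with it. Only positions on build mm9 were given, so no peak has a height and the read depth is unknown. The antibody entry of H3K9me3 replicate 4 reads none, and the library was kept in the group that its title names. The labels do not say whether libraries came from separate cultures, so the spread between them may be technical.

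The number of small sites depended on which lists had to hold them. Regions built from only 3 lists, and held by those 3, numbered 2457 without untreated replicate 1 and 1670 without tamoxifen replicate 2. They numbered 1353 without untreated replicate 2 and 1251 without tamoxifen replicate 1. Among all 6165 merged regions of 1 to 3 kb, 17.7% were held by 4 lists (95% Clopper-Pearson interval 16.7% to 18.6%). A further 1345 were held by 3 lists, 1971 by 2 and 1760 by 1. All intervals given here cover counting error alone.

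Most small sites lay in the upper part of the width range. Their median width was 2309 bp, with quartiles at 1870 and 2676 bp. Sites of 2 kb or more numbered 740, and 349 were narrower. The narrowest 3 measured 1040, 1046 and 1089 bp, at chr18:36674202-36675241, chr8:11007483-11008528 and chr16:17759782-17760870. Just below the lower limit were regions of 985, 944 and 924 bp on chromosomes 17, 7 and 1. At the upper limit, the widest members measured 2998, 2998 and 2997 bp on chromosomes 1, 8 and 18, and 3 regions of exactly 3000 bp on chromosomes 1, 7 and 12 fell outside. Their cover overlapped. Untreated replicate 1 covered 31.8% to 90.5% of the 3 widest members and 75.5% to 100% of the 3 regions just outside. For untreated replicate 2 these ranges were 30.4% to 99.7% and 12.3% to 51.5%. For tamoxifen replicate 1 they were 24.2% to 90.6% and 14.2% to 42.5%, and for tamoxifen replicate 2 20.4% to 55.9% and 32.3% to 100%.

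A small site was usually 1 peak in each list, and the lists covered it to different extents. Sites with a single peak numbered 1080 of 1089 in untreated replicate 1, 1028 in untreated replicate 2, 1002 in tamoxifen replicate 1 and 1039 in tamoxifen replicate 2. Over all bases of the sites, untreated replicate 1 covered 73.5% and untreated replicate 2 covered 61.6%. Tamoxifen replicate 1 covered 56.3% and tamoxifen replicate 2 covered 65.4%. The 2 tamoxifen lists lay on either side of untreated replicate 2, so the groups overlapped. The median stretch of a site inside peaks was 1659 and 1366 bp in the untreated lists and 1220 and 1421 bp in the tamoxifen lists. Sites covered over less than 25% of their length were 37 and 107 without tamoxifen, in replicates 1 and 2, and 128 and 96 with it. No such value is tested, since the same lists chose the sites and set their borders.

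**Figure D1:**
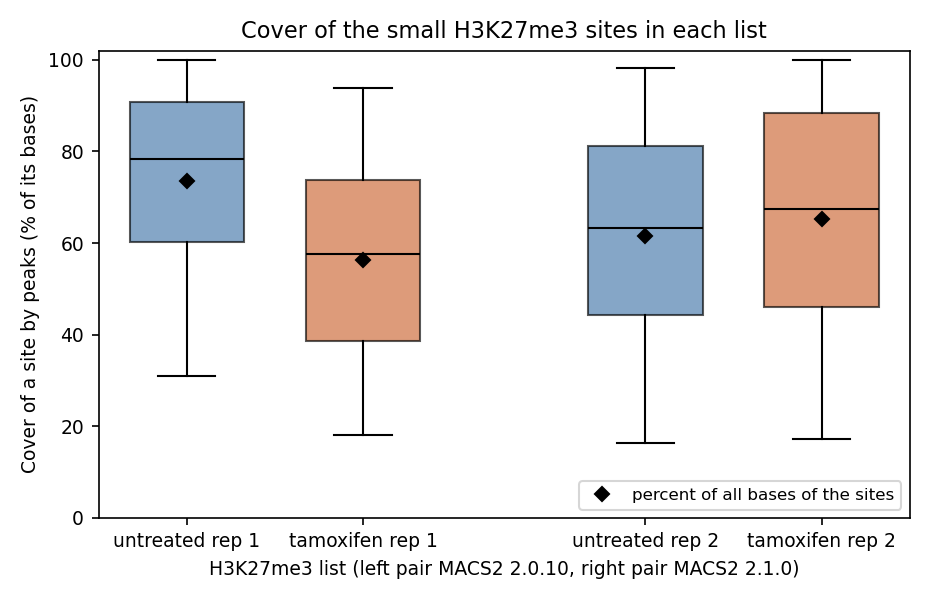
Cover of the 1089 small sites by the peaks of each H3K27me3 list, as a percentage of the bases of a site. Boxes span the quartiles, the line is the median, whiskers reach the 5th and 95th percentiles, and diamonds give the share of all bases of the sites, which is 73.5% and 56.3% in the left pair and 61.6% and 65.4% in the right pair.

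The lists shared a modest part of each site. Of all bases in small sites, 24.3% lay in a peak of 1 list alone, 23.3% in 2 lists, 23.6% in 3 and 28.8% in all 4. In wide regions 63.9% of bases lay in all 4 lists, and in regions of 3 to 10 kb 42.1% did. The stretch common to all 4 lists in a small site had a median of 562 bp, with quartiles at 207 and 1012 bp. It took up at least 50% of the width in 193 sites. In 137 sites, which is 12.6%, no base was shared by all 4 lists although each list held a part. This was so in 3.63% of regions of 3 to 10 kb and 0.202% of wide regions. A common stretch with its centre in the middle 50% of the site was found in 79.5% of all 1089 sites. The 137 sites without a common base count as not having one. Outer borders came mostly from untreated replicate 1, with 698 of the borders (32.0%), and from tamoxifen replicate 2, with 723 (33.2%). Untreated replicate 2 gave 432 and tamoxifen replicate 1 gave 332. Any merged region takes its outer edges from the lists that reach farthest, and the origin of borders was not compared with other width classes.

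With tamoxifen, the cover of small sites differed in opposite directions in the 2 pairs of lists. In the MACS2 2.0.10 pair tamoxifen minus untreated was -17.2 percentage points, at 56.3% against 73.5%. In the MACS2 2.1.0 pair it was 3.71 points, at 65.4% against 61.6%. Over whole lists, median peak width was 729 bp with tamoxifen against 2511 bp untreated in the MACS2 2.0.10 pair. In the MACS2 2.1.0 pair it was 727 bp against 784 bp. The part of peak width in these differences was not tested. Cover gives how far peaks reached and not how much mark there was. In bulk cells it also could not tell fewer cells with the mark from less mark per cell. The group means were 67.6% ± 8.40 untreated and 60.8% ± 6.385 with tamoxifen (SD, n = 2 lists each), and their difference was -6.75 percentage points. That is smaller than the untreated SD and slightly larger than the tamoxifen SD. Leaving out 1 list and rebuilding the sites gave -14.4 without untreated replicate 2, -12.4 without tamoxifen replicate 2, -2.62 without untreated replicate 1 and -1.95 without tamoxifen replicate 1. Site by site, 798 were less covered with tamoxifen in the first pair, 73.3% beside 77.7% over all 4768 regions held by the 4 lists, and 290 were more covered, 26.6% beside 22.2%. In the second pair 495 were less covered, 45.5% beside 50.1%, and 594 more covered, 54.5% beside 49.8%. Both pairs showed less cover at 359 small sites, which is 33.0%, beside 39.7% over all 4768 regions. Both pairs showed more cover at 154 sites, 14.1% beside 11.8%. Both tamoxifen lists lay below both untreated lists at 233 sites, 21.4% beside 23.9%, and above both at 73 sites, 6.70% beside 5.08%.

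Across the small sites the differences in the 2 pairs were nearly uncorrelated. Over the 1089 sites Pearson's r between the differences was 0.0024 and Spearman's rho was 0.0080. In all, 576 sites moved in opposite directions or not at all in a pair, 52.9% beside 48.6% over all 4768 regions. The pairs share no list, but both are measured within the same merged borders. Over the 494 wide regions the same r was 0.205 and rho was 0.172. Opposite signs in the 2 pairs were also seen in regions of 3 to 10 kb held by all 4 lists, which had differences of -15.6 points in the MACS2 2.0.10 lists and 0.925 in the MACS2 2.1.0 lists, and wide regions had -11.4 and -3.05. Over all 4768 regions the differences were -14.5 and -0.0325 points. The differences between these width classes were not tested.

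**Figure D2:**
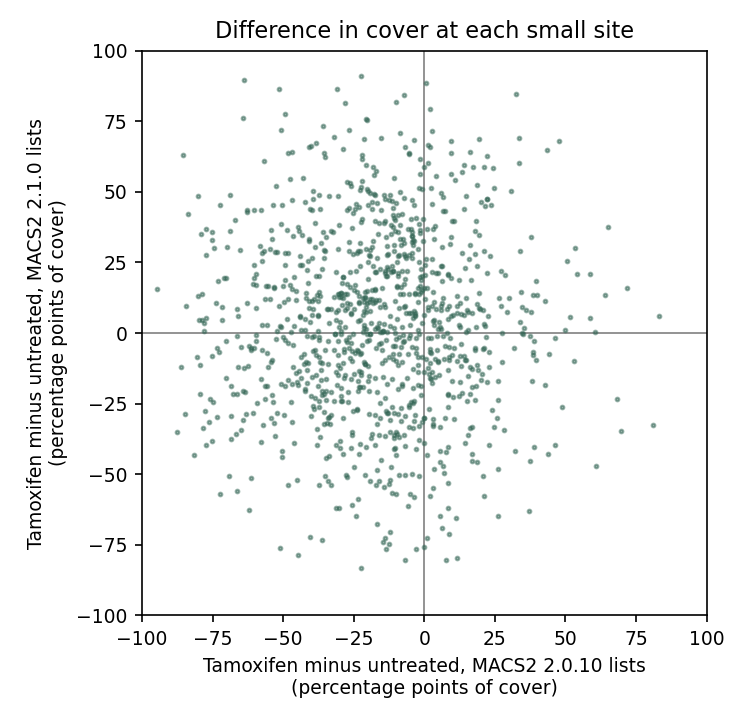
Tamoxifen minus untreated cover of each of the 1089 small sites, in percentage points, in the MACS2 2.0.10 pair (horizontal axis) and the MACS2 2.1.0 pair (vertical axis). Points form no diagonal, with 359 in the lower left corner, where both differences are negative, and 154 in the upper right corner.

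The direction in each pair was the same in several kinds of small site. Tamoxifen minus untreated cover was -14.7 points in the MACS2 2.0.10 pair and 1.70 in the MACS2 2.1.0 pair at the 349 sites of 1 to 2 kb. It was -17.97 and 4.32 points at the 740 sites of 2 to 3 kb. At the 506 sites more than 100 kb from another region held by all 4 lists it was -16.8 and 1.54 points. Among the 255 sites within 10 kb of such a region it was -20.2 and 5.09 points. On chromosome 8, whose 87 sites had the highest density of all autosomes, it was -8.47 and 5.79 points. Isolated and clustered sites, and narrower and wider ones, thus all showed less cover in the first pair and more in the second.

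Single sites show how far the lists diverged. The site most fully covered in every list lay at chr9:63867433-63869451. Untreated lists covered 89.8% and 93.6% of it and tamoxifen lists 94.4% and 92.6%, a spread of a few points. The next by this measure were at chr2:35865497-35868339, chr7:36119680-36122385, chr4:123017939-123020064 and chr18:67547939-67550090, with a lowest cover of 87.7%, 86.5%, 85.5% and 84.7%. No site reached 90% in all 4 lists, and 328 reached 50%. The next sites were picked for their difference, so their values describe the extremes of the set.

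The largest difference toward less cover with tamoxifen, among sites moving the same way in both pairs, was at chr17:24346450-24348447. Untreated lists covered 100% and 69.8% of this site, and tamoxifen lists 27.6% and 12.7%. A site at chr1:99992349-99995201 had 79.2% and 92.5% untreated against 28.0% and 16.5% with tamoxifen. The remaining 3 lay at chr8:116504243-116505988, chr11:74452719-74455711 and chr1:197038344-197039451, with mean differences of -62.5, -62.4 and -61.6 points. At each of these 5 sites both untreated lists were above both tamoxifen lists.

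The largest difference toward more cover was at chr7:105269176-105270511. Untreated lists covered 17.4% and 15.5% of this site, and tamoxifen lists 49.9% and 100%. On chromosome 17 from 46691150 to 46692581 the untreated lists covered 18.6% and 14.2%, and the tamoxifen lists 66.3% and 82.1%. The remaining 3, at chr7:4785520-4787131, chr17:84910658-84912330 and chr8:91335829-91338711, had mean differences of 54.1, 51.3 and 51.2 points. All 5 had a single peak in every list, as had the 5 sites with less cover, so these differences lay in how far 1 peak reached.

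To measure small sites in peaks that had no part in choosing them, each list was set aside in turn. Regions of 1 to 3 kb were built from the other 3 lists and held by all of those. Untreated replicate 1 held 1483 of 2457 such regions, which is 60.4% (95% Clopper-Pearson interval 58.4% to 62.3%). Untreated replicate 2 held 91.6% of 1353 (89.97% to 93.0%). Tamoxifen replicate 1 held 91.7% of 1251 (90.02% to 93.2%), and tamoxifen replicate 2 held 90.8% of 1670 (89.4% to 92.2%). The list with the fewest peaks thus held a smaller share than the others, whose intervals overlapped. The shares are over different regions, however, and only those scored for untreated replicate 1 were built without its peaks. The means were 76.0% ± 22.1 untreated and 91.3% ± 0.600 with tamoxifen (SD, n = 2 lists each). A permutation test over the lists, exact and two-sided, gave p = 0.667 and can reach no less than 0.333. Each list also helped build the regions on which the others were scored, and the test does not account for this. The difference of 15.3 percentage points was 31.3 within MACS2 2.0.10 and -0.736 within MACS2 2.1.0. It turned to -3.81 with the same number of widest peaks from each list, and was 3.93 where the list set aside had to cover at least 50% of a region and 7.81 with peaks of at least 500 bp. Over bases, the lists set aside covered 47.7% and 56.9% untreated and 51.8% and 61.2% with tamoxifen (difference 4.19 points, exact permutation p = 0.667). Within the versions the differences over bases were 4.13 and 4.25 points.

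Building the regions from the pair of one MACS2 version and measuring them in the other pair gave nearly equal cover with and without tamoxifen. Of 2617 regions of 1 to 3 kb built from and held by both MACS2 2.0.10 lists, untreated replicate 2 held 90.3% and tamoxifen replicate 2 held 89.0%. These lists covered 63.4% and 62.8% of the bases, a difference of -0.664 points. More of the region was covered with tamoxifen at 1166 regions and without it at 1106. Of 3923 regions built from both MACS2 2.1.0 lists, untreated replicate 1 held 46.2% and tamoxifen replicate 1 held 66.5%. These lists covered 37.7% and 38.2% of the bases, a difference of 0.522 points. Cover was greater with tamoxifen at 1333 regions and without it at 1286. Each of these comparisons rests on 1 library against 1 and has no replicate check.

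Sites seen in 1 state were mostly found in the other as well. Of 1907 regions of 1 to 3 kb built from both untreated lists, both tamoxifen lists held 1591, which is 83.4%, and neither held 55, which is 2.88%. Of 3133 built from both tamoxifen lists, both untreated lists held 1781, which is 56.8%, and neither held 351, which is 11.2%. Untreated replicate 1, with the fewest peaks, held 60.5% of the latter and untreated replicate 2 held 85.1%.

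Small sites occurred on every autosome at 0.441 per Mb on average, counted over the stretch from the first base to the last peak of any list. Density was highest on chromosome 8, with 87 sites at 0.660 per Mb (95% Poisson interval 0.529 to 0.815), followed by chromosome 11 with 76 at 0.624 (0.491 to 0.781) and chromosome 7 with 87 at 0.570 (0.457 to 0.704). The intervals of these 3 chromosomes lay above the autosome average. It was lowest on chromosome 3, with 41 sites at 0.257 per Mb (0.184 to 0.349), and on chromosome 14, with 40 at 0.320 (0.228 to 0.435). The intervals of these 2 lay below the average, and those of the other 14 chromosomes included it. Adjacent chromosomes in this order overlapped in their intervals. Chromosomes 8 and 11 also held the most merged regions of 1 to 3 kb whatever the number of lists, 688 and 618. Of these 12.6% and 12.3% were held by all 4 lists, against 17.7% over the autosomes. Chromosome 8 had the highest density of H3K9me3 regions held by all 4 H3K9me3 lists as well, at 6.07 per Mb against 4.28 over the autosomes.

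Chromosomes rich in wide regions tended to be rich in small sites. Across the 19 autosomes the densities of small sites and wide regions had a Pearson r of 0.628 and a Spearman rho of 0.593. Without chromosomes 11 and 19, the farthest from the median in wide regions, r was 0.512. With regions of 3 to 10 kb r was 0.780, and with H3K9me3 regions it was 0.191. These describe 19 chromosomes whose densities come from the same lists. The share of small sites among regions held by all 4 lists ran from 17.7% on chromosome 2 (14.1% to 21.8%) to 30.3% on chromosome 16 (22.3% to 39.3%). On this measure chromosome 8, at 25.2%, was 1.104 times the autosome share of 22.8%, while its density per Mb was 1.499 times the average.

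**Figure D3:**
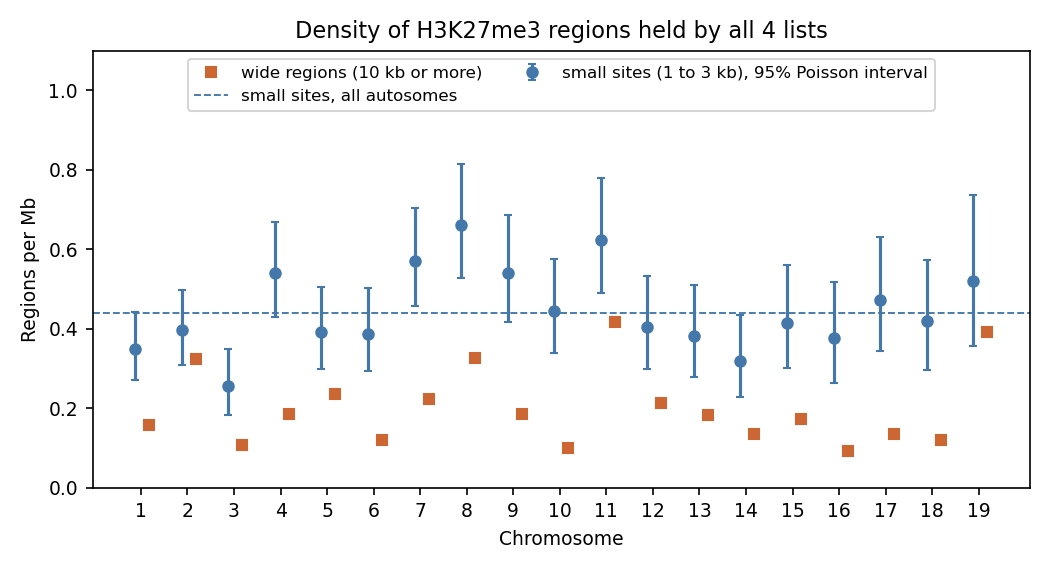
Small sites (circles, bars are 95% Poisson intervals) and wide regions (squares) per Mb on each autosome, both held by all 4 H3K27me3 lists. The dashed line is the autosome density of small sites, 0.441 per Mb, and chromosomes 7, 8 and 11 have intervals above it.

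Along the chromosomes the small sites leaned toward the distal end. Mouse chromosomes have their centromere at the start of the numbered sequence. Dividing each from 3 Mb to its last peak into 5 equal parts put 17.9%, 18.6%, 17.8%, 20.02% and 25.6% of the sites in them, in order. For wide regions these shares were 15.99%, 19.2%, 17.2%, 21.9% and 25.7%. The first 2 Mb of the mapped sequence held 22 small sites (2.02%), beside 1.45% of regions of 3 to 10 kb and 1.01% of wide regions. The last 2 Mb held 29 (2.66%), beside 2.65% and 2.23%. The 2 Mb stretches at one end made up 1.57% of the span.

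Few small sites lay beside a wide region. The median distance from a small site to the nearest wide region was 1392733 bp, with quartiles at 464408 and 3096273 bp. Within 10 kb of one lay 28 sites, which is 2.57% (Clopper-Pearson 1.72% to 3.69%), and within 100 kb lay 94, which is 8.63% (7.03% to 10.5%). Of the regions of 3 to 10 kb held by all 4 lists, 11.6% lay within 100 kb (10.6% to 12.8%). Of regions of 1 to 3 kb held by fewer lists the share was 13.98% with 3 lists (12.2% to 15.9%), 18.6% with 2 (16.9% to 20.4%) and 16.25% with 1 (14.6% to 18.1%). Small sites held by all 4 lists thus had the lowest share of these classes, and the differences were not tested. Wide regions themselves had another wide region within 100 kb in 26.5% of cases.

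**Figure D4:**
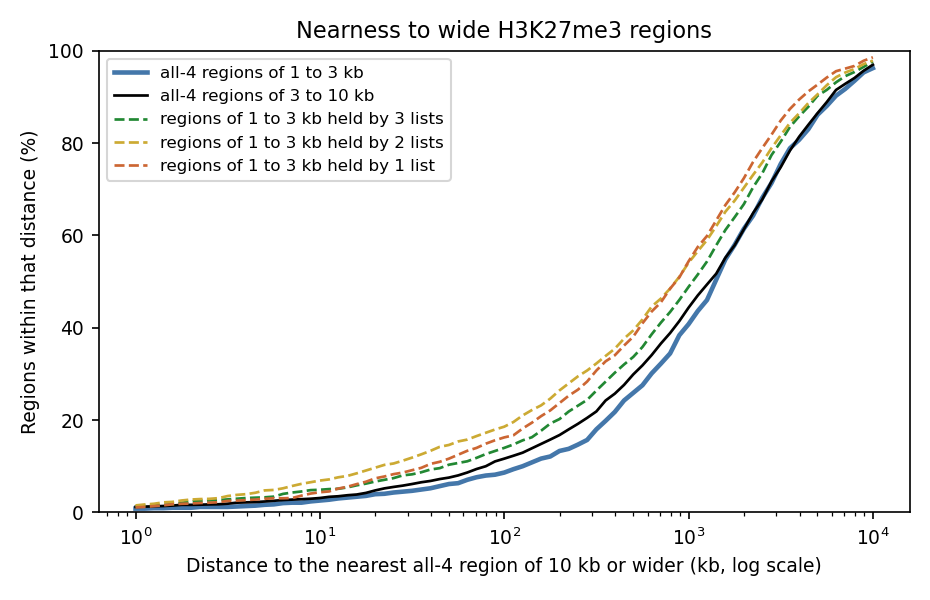
Percentage of regions (vertical axis) within a given distance of the nearest wide region (horizontal axis, kb, log scale). At 100 kb the thick line of the small sites reaches 8.63%, below regions of 3 to 10 kb at 11.6% and below regions of 1 to 3 kb held by 3, 2 or 1 lists.

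Counting neighbours of every width, small sites had a median distance and a share beyond 100 kb close to those of regions of 3 to 10 kb. The nearest other region held by all 4 lists was a median of 84900 bp away, with quartiles at 12361 and 227186 bp, against 86198.5 bp for regions of 3 to 10 kb and 49272.5 bp for wide ones. Within 10 kb lay 255 small sites (23.4%), beside 19.4% of regions of 3 to 10 kb and 28.5% of wide regions. Another 328 small sites had their nearest neighbour farther than 10 kb but within 100 kb. No such region lay within 100 kb of 506 small sites (46.5%), beside 46.9% and 37.2% in these other classes. Within 1 kb of another region lay 110 small sites (10.1%), beside 6.85% and 11.5%. The nearest neighbour was a region of 3 to 10 kb for 737 sites, another small site for 265, a wide region for 80 and a region under 1 kb for 7. These shares, 67.7%, 24.3%, 7.35% and 0.643%, lay near the makeup of all regions held by 4 lists, at 66.4%, 22.8%, 10.4% and 0.357%. Among the 255 sites with a neighbour within 10 kb, that neighbour was another small site in 34.1%. Small sites within 10 kb of each other formed 43 pairs and 2 groups of 3, and the other 997 had no small site that close.

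The most isolated small site lay at chr6:131382638-131385396, 3397620 bp from any other region held by all 4 lists. Its cover was 100% and 45.9% untreated and 60.7% and 39.5% with tamoxifen. Then came sites at chr8:55864653-55867243, chr16:48749750-48751672, chr7:62089433-62092329 and chr2:87277445-87279033, each at least 2498943 bp from the nearest such region. In all, 40 small sites were more than 1 Mb from any other region held by all 4 lists. At these 5 isolated sites the lowest cover in a list was 13.5% to 60.8%.

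The small site nearest a wide region lay at chr5:38227607-38229553, 337 bp after a wide region of 22562 bp. Untreated lists covered 24.9% and 44.2% of it, and tamoxifen lists 17.7% and 91.99%. On chromosome 8 a site from 106612351 to 106614894 lay 352 bp before a wide region of 14193 bp and was covered over 83.5% to 99.4% in the 4 lists. On chromosome 15 a site from 102735536 to 102737660 lay 430 bp before a wide region of 12791 bp. There the untreated lists covered 87.2% and 86.5% and the tamoxifen lists 62.2% and 39.2%. The next were at chr8:47296895-47299109 and chr6:8908029-8910675, at 649 and 651 bp. Such sites are set off from the wide region by a gap that no list bridges.

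H3K9me3 was measured in libraries that had no part in choosing the sites, and its peaks overlapped few of them or of the other H3K27me3 regions. Of the 1089 small sites, 5, 18, 32 and 14 overlapped a peak of H3K9me3 replicates 1 to 4, which is 0.459%, 1.65%, 2.94% and 1.29%. Over all 4768 regions held by the 4 H3K27me3 lists these shares were 0.776%, 2.1%, 4.78% and 2.37%. For wide regions, with a median width of 13959 bp against 2309 bp, they were 2.02%, 4.05%, 7.89% and 6.07%. Regions held by all 4 H3K9me3 lists overlapped 9 small sites, 0.826% (Clopper-Pearson 0.379% to 1.56%), beside 0.818% over all 4768 regions. Within 10 kb of a peak of the single lists lay 9.37%, 16.9%, 25.7% and 17.36% of the sites, and 6.88%, 16.2%, 24.5% and 17.41% of wide regions. Replicate 3, with the most peaks at 42725, was closest, and replicate 1, with the fewest at 18037, was farthest. The share within 10 kb followed the number of peaks in the list, and replicate 1 is also the list from MACS2 2.0.10. Their part in these shares was not tested.

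By median distance from edge to edge, small sites lay closer to an H3K9me3 peak than wide regions in every list, although wide regions overlapped such peaks more often in every list. The median distance was 89097, 46224, 29187 and 43647 bp in replicates 1 to 4 for small sites. For wide regions it was 91147.5, 52826.5, 31131 and 48295.5 bp. Regions of 1 to 3 kb held by 3 H3K27me3 lists had medians of 86036, 43105, 28094 and 42896 bp. These were below those of the small sites in every list. With 2 H3K27me3 lists medians were 87823, 47501, 29051 and 45236 bp, and with 1 they were 91836.5, 43541.5, 28388 and 43962 bp. A shorter distance than in wide regions was thus not particular to sites held by all 4 lists. Small minus wide was -2050.5, -6602.5, -1944 and -4648.5 bp, with a mean of -3811 ± 2242 bp (SD, n = 4 lists). A two-sided exact sign-flip permutation test over the lists gave p = 0.125, the smallest that 4 lists allow. All 4 differences use the same regions, so this p-value covers variation between lists and not between regions. Without replicate 4, whose antibody entry is none, the mean was -3532 bp. From centre to centre it was -12205 bp, and to H3K9me3 regions held by all 4 lists the difference was -15707.5 bp. Against regions of 3 to 10 kb the difference was -4189 ± 1788 bp, negative in 4 of 4 lists (exact p = 0.125). Both p-values were the smallest possible, and neither changes if both are adjusted together by the Benjamini-Hochberg method. These differences were small beside the spread among sites, whose quartiles in replicate 2 were 17864 and 106882 bp.

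**Figure D5:**
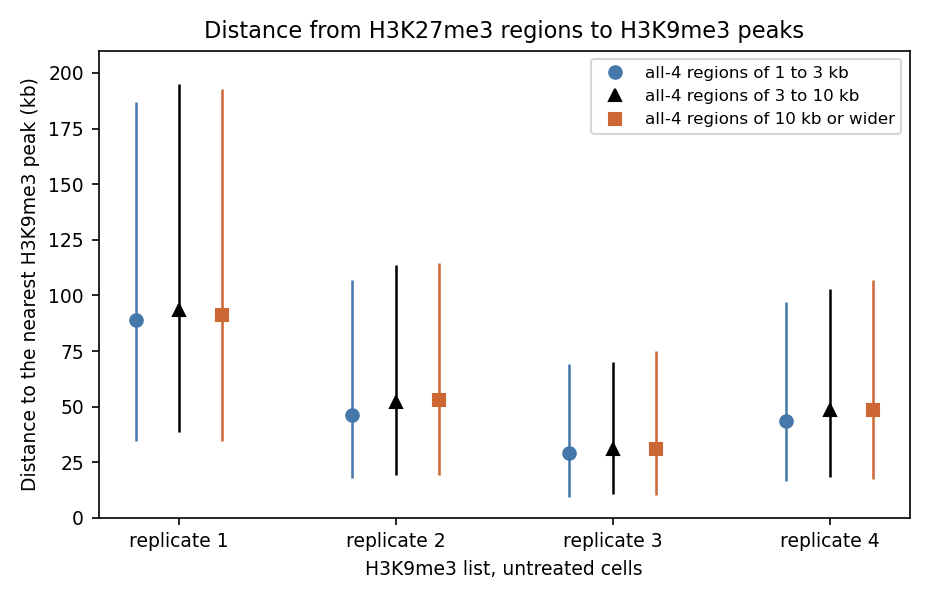
Distance in kb from H3K27me3 regions to the nearest peak in each H3K9me3 list. Symbols are medians over the regions and lines span the quartiles, which overlap between the 3 width classes in every list while the median of the small sites is the lowest of the 3 in each.

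Where both marks met at a small site, 3 of the 9 sites lay wholly inside regions held by all 4 H3K9me3 lists. They were chr14:68741790-68744182, chr18:37880079-37882102 and chr17:39984397-39985789. An H3K9me3 region is merged from 4 lists, and each single list overlapped the site itself on chromosomes 18, 17 and, at chr5:77444448-77446641, 5. On the chromosome 14 site replicates 2 and 3 did, and peaks of replicates 1 and 4 lay 475 and 48 bp away. On the chromosome 14 site, cover by H3K27me3 was 91.1% and 49.9% untreated and 73.6% and 51.5% with tamoxifen. On the chromosome 17 site it was 50.5% and 97.2% untreated and 57.2% and 96.2% with tamoxifen. There the replicate 1 lists of both treatments lay near each other, as did those of replicate 2. MACS2 version and replicate cannot be told apart in this. The others shared 1028 bp at chr5:77444448-77446641, 1009 bp at chr13:64263584-64265669 and 1007 bp at chr9:122191236-122194072. The last 3 shared 553 bp at chr7:25369887-25372292, 264 bp at chr1:168342736-168344634 and 17 bp at chr12:18142270-18143653. Mean tamoxifen minus untreated cover at the 9 sites ran from -23.7 to 17.4 points, negative at 4 and positive at 5.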

How the data were processed

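For 8 of 13 samples the authors deposited a peak list, with peak positions in 3 columns and nothing on height, significance or reads. Per the submitters' processing notes, Bowtie 0.12.7 and MACS2 2.0.10 or 2.1.0 were used on build mm9. How peaks were called (mode, threshold, control) is not given in the sources used here. Version and replicate go together and cannot be told apart, and read depth is unknown. The 5 inputs were not analysed here.

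Groups came from the titles. Lists of the same mark shared at most 1 identical peak per pair, so none is a copy of another. Peaks were merged and measured with Python 3.11.15, NumPy 2.4.6 and SciPy 1.17.1, and plotted with Matplotlib 3.10.9. The code was checked on simulated peaks against a count base by base. Cover is the share of the bases of a region inside peaks of a list, and distance is the number of bases between edges. Intervals are exact at 95%. Tests were exact permutations over lists.

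Members, comparisons and alternatives were chosen with earlier results of these data known. Named sites were the 5 at each extreme of lowest cover, difference between treatments, isolation and nearness to a wide region, the overlaps with H3K9me3 and the 3 on each side of a width limit. The gene and promoter tables at hand follow GRCm38.p6 and no mm9 genome was used, so no gene or sequence is given. Positions count from 1 on mm9.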

Additional observations from a re-analysis of the deposited data

Results flagged for a closer look

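The cover of small sites differed with tamoxifen in opposite directions in the 2 pairs of lists, at -17.2 percentage points in the MACS2 2.0.10 pair and 3.71 in the MACS2 2.1.0 pair. The difference between the pairs was not tested, since each holds 1 list per treatment, and version and replicate cannot be told apart in it. Median peak width was 2511 bp untreated and 729 bp with tamoxifen in the MACS2 2.0.10 pair, and 784 and 727 bp in the MACS2 2.1.0 pair. The 4 sets of values over the H3K9me3 lists that were screened for a list far from the others, by Dixon's criterion for 4 values, held none.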

How the results depend on the processing

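The cause of the changes below was not tested, unless the setting itself shows it. The number of small sites was 1089, and 328 when each list had to cover at least 50% of a site, 427 with an equal number of widest peaks from each list (7041), 2617 from the MACS2 2.0.10 lists alone and 3923 from the MACS2 2.1.0 lists alone. Leaving out 1 list in turn gave 1251 to 2457, since fewer lists had to hold a site. The difference in cover was -6.75 points, -14.4 to -1.95 when 1 list was left out, -1.93 with an equal number of widest peaks, -2.67 at sites that each list covered over at least 50%, -17.2 in the MACS2 2.0.10 lists and 3.71 in the MACS2 2.1.0 lists, where it changed sign. Without chromosome 8, chosen after seeing the data, it was -7.21.

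The share of small sites within 100 kb of a wide region was 8.63%, and 8.14% to 10.9% when 1 list was left out, with the highest value without untreated replicate 1. By construction it was 28.9% with wide regions from 5 kb, 3.31% from 20 kb, 6.06% within 50 kb and 25.9% within 500 kb. The difference in the share held by the list set aside was 15.3 points and was 3.93 where the list set aside had to cover 50%, 7.81 with peaks of at least 500 bp and -3.81, the other direction, with an equal number of widest peaks (exact permutation p = 0.333, the smallest possible). The density of chromosome 8 was 1.499 times the average per Mb and 1.104 times it as a share of regions held by all 4 lists. The difference in distance to H3K9me3, -3811 bp, stayed negative in the alternatives run but its size moved: it was -12205 bp from centre to centre, -15707.5 to regions held by all 4 H3K9me3 lists, -6783.5 to regions held by at least 2, -5725 with H3K9me3 peaks of at least 500 bp, and -4434 to -2881 when 1 list was left out.

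No paired analysis was possible because the titles number only the second library of each H3K27me3 group, so the groups share 1 replicate number from the labels. The pairs of lists from the same MACS2 version are given as values, with no test, and are not pairs of cultures named by the labels. Unknown read depth limits all values.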

Other observations

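Outside the autosomes, chromosome X held 23 regions of 1 to 3 kb that all 4 H3K27me3 lists held.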
